A study of Homo sapiens with 48 samples.

Results

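CAPAN-2, an established human cell line from a pancreatic ductal adenocarcinoma, was compared across all genes after carfilzomib and after DMSO. The comparison takes 6 of the series' 48 libraries, chosen by their labels: 3 biological replicates of CAPAN-2 treated for 24 h with carfilzomib and 3 treated with the solvent DMSO. Per the labels, the drug was given at the concentration that brings proteasome activity in this line down by 50%. The concentration itself is not given in the sources used here, so the groups compare an equal degree of inhibition between lines and not an equal dose. The labels name no genetic change, and the cells are 1 line, so the replicates measure the spread between cultures of that line. The other 42 libraries hold the same pair of treatments in 7 further cancer lines of colon, lung, pancreas and plasma cell origin. The title of the study names HSP70 chaperones and the proteasome.

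The proteasome is the barrel-shaped protease that degrades proteins tagged with ubiquitin. Carfilzomib binds irreversibly to the chymotrypsin-like active site in its inner ring. Cells that lose proteasome activity are known to make new subunits through the transcription factor NFE2L1, to raise chaperones through HSF1, to send cargo to autophagy, and to switch on antioxidant genes through NRF2. Pancreatic ductal cells line the ducts and secrete bicarbonate and mucins, and ductal cancers are known to rely on autophagy.

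Depth ran from 25600054 to 45865683 counts per CAPAN-2 library. Replicates differed by more than counting noise in every pair. The first principal component carried 76.6% of the variance over genes and separated the treatments, and the second carried 7.56% and held DMSO replicate 3 apart from the other DMSO libraries. In each library, 32 to 39 rows with a group mean of at least 50 counts lay more than 4-fold from the mean of the other replicates, and 29 to 36 of these rows share an Ensembl identifier with another row, a kind of row that makes up only 2.35% to 2.45% of those examined. The counts of such genes are divided over several rows, and any named below is marked as uncertain. All 10 ductal and epithelial markers examined were detected, and their summed counts-per-million (CPM) level was 16503 to 17191 in DMSO and 14296 to 14623 after carfilzomib. Of 10 acinar markers, 6 had no count in any library and the sum of the rest reached at most 0.590 CPM. CPM were computed after scaling the libraries by the trimmed mean of M values (TMM) and are not divided by gene length. In bulk RNA, fewer cells of a type and less RNA per cell cannot be told apart.

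Carfilzomib changed 8883 of the 16931 genes tested in CAPAN-2 (52.5%). Of these, 4356 rose (25.7%) and 4527 fell (26.7%) at a Benjamini-Hochberg adjusted p under 0.05 in edgeR's quasi-likelihood test, the test behind every "rose" and "fell" below. At least 2-fold changes were 785 rises (4.64%) and 962 falls (5.68%), and at least 4-fold changes were 177 rises (1.05%) and 104 falls (0.614%). The median log2 fold change over all genes was -0.02. Counts of rises and falls in the gene lists below stand beside the shares of all genes, 25.7% and 26.7%. The CPM of the groups did not overlap for 10047 genes (59.3%). Fold changes are given as log2 of carfilzomib over DMSO with their standard error, 3 libraries against 3, and levels as mean CPM with the SD over 3 libraries.

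**Figure D1:**
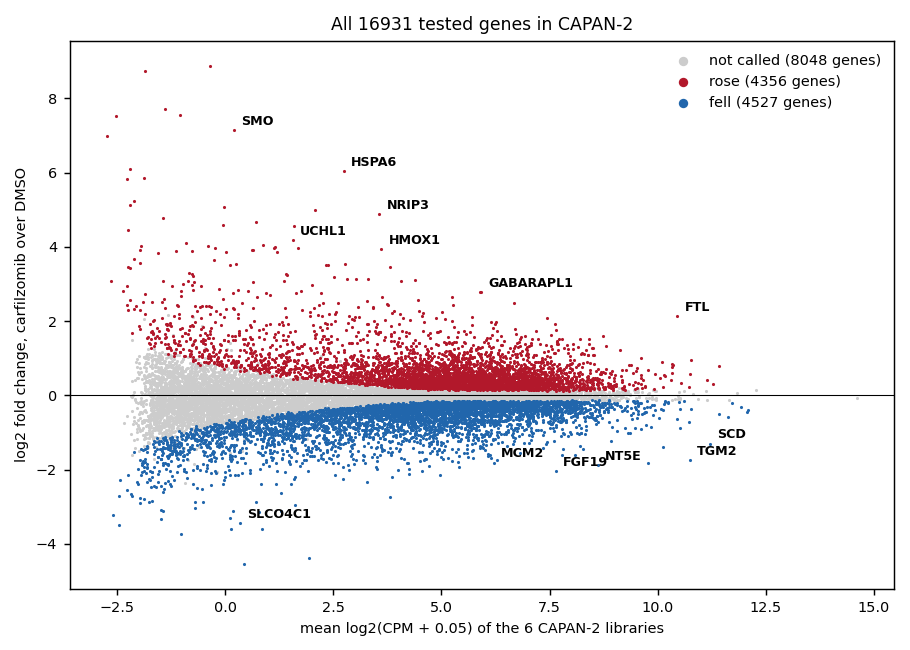
Each point is 1 of 16931 genes in CAPAN-2, with the mean of the log2 CPM of the 6 libraries on the horizontal axis and the log2 fold change of carfilzomib over DMSO on the vertical axis. Red points rose and blue points fell at an adjusted p under 0.05 (4356 and 4527 genes), grey points did not pass, and labelled genes are among those described in the text. The largest rises lie on the left, at genes close to 0 CPM in DMSO.

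The genes with the largest rises were almost silent in the DMSO libraries. SMO, the transducer of Hedgehog signalling, had 0.102, 0.157 and 0 CPM in the DMSO libraries and 10.7, 10.9 and 12.7 CPM in the carfilzomib libraries. Each treated library was at least 68.1-fold above every control, and the log2 fold change was 7.15 ± 0.36. Without DMSO replicate 2 it was 7.85 and without DMSO replicate 3 it was 6.45. DYNC1I1, a dynein intermediate chain, rose from 0.723 ± 0.112 to 22.9 ± 1.304 CPM. NRIP3 rose from 2.15 ± 0.0749 to 63.4 ± 1.84 CPM (log2 fold change 4.88 ± 0.08, adjusted p = 2.7e-14). UCHL1, a deubiquitinase best known from neurons, rose from 0.6699 ± 0.125 to 12.3 ± 1.07 CPM. The list of the 15 largest rises also held the diacylglycerol kinase DGKG, the chemokine CCL26, the tetraspanin CD81 and the lens protein gene CRYBA2. Because CPM near 0 rest on few counts, 11 genes with at most 3 DMSO counts in all were treated as bounds or ratios with an exact 95% counting interval. GCKR, the glucokinase regulator, had 0 DMSO counts and 149 carfilzomib counts, which puts it at least 58.9-fold higher against a floor of 3 counts over the group. MRO had 1 DMSO count and 251 carfilzomib counts, a ratio of 298 (interval 52.98 to 11812). Without DMSO replicate 3, the only DMSO library with a count, it was at least 59.9-fold higher. Without 1 DMSO library the bound of GCKR was 35.6- to 43.05-fold, since the floor of 3 counts is then set against a smaller depth.

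Several of the largest falls also lay at low levels. SLCO4C1, an organic anion transporter, fell from 3.91 ± 0.786 to 0.362 ± 0.0668 CPM (log2 fold change -3.45 ± 0.26). VCAN, a matrix proteoglycan, fell from 1.51 ± 0.337 to 0.209 ± 0.0738 CPM, and the chemokine CXCL14 fell from 21.8 ± 1.895 to 4.31 ± 0.0859 CPM. Among the genes that changed at least 2-fold, those with the highest levels are given next. FTL, the light chain of the iron store ferritin, rose from 674 ± 112 to 2950.1 ± 158 CPM, and LAMB3, a laminin chain of the basement membrane, rose from 555 ± 34.4 to 1112 ± 45.7 CPM. CYP4F3, which inactivates leukotrienes, rose from 282 ± 26.5 to 704 ± 35.02 CPM. On the falling side were SCD, the desaturase that makes monounsaturated fatty acids, TGM2 (transglutaminase 2), ITGB4 (integrin β4) and PLAT (tissue plasminogen activator). TGM2 fell from 3166 ± 149 to 940.3 ± 70.2 CPM, ITGB4 from 1810.3 ± 159 to 694 ± 30.98 CPM and PLAT from 1639 ± 181 to 467 ± 21.6 CPM. The ectonucleotidase gene NT5E fell from 752 ± 16.4 to 204 ± 3.08 CPM, and the receptor kinase gene AXL fell from 508 ± 35.6 to 187 ± 2.89 CPM. All of these genes were chosen by a rule that asked for no overlap of CPM. That the 3 treated libraries lay apart from the 3 controls is therefore no separate result.

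Proteasome subunits rose together. Of 32 tested subunits of the 20S core and the 19S cap, 31 rose and none fell, with a median log2 fold change of 1.27 against -0.02 for all genes. All 7 α subunits, which form the outer rings and gate the channel, rose between 0.83 and 1.29. All 6 tested β subunits rose (0.59 to 1.58). PSMB5, the β subunit with the chymotrypsin-like site that carfilzomib binds, had 125, 130.2 and 111 CPM in the DMSO libraries and 284, 289 and 301 CPM in the carfilzomib libraries. The libraries of the treatments did not overlap, at a log2 fold change of 1.25 ± 0.06 with an adjusted p of 1.0e-09. PSMB7, the trypsin-like subunit, had a log2 fold change of 1.58 ± 0.06, and PSMB1, whose row could not be matched to the annotation, had the smallest rise of the subunits, 0.59 ± 0.07.

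In the 19S cap, which unfolds substrates and removes ubiquitin, 5 of 6 ATPases and all 13 other subunits rose. PSMD2, a scaffold of the base, had 247, 266 and 223 CPM in the DMSO libraries and 747, 721 and 744 CPM in the carfilzomib libraries, a log2 fold change of 1.59 ± 0.07. PSMD12, a lid subunit, had 84.7, 83.1 and 74.8 CPM in the DMSO libraries and 196, 183 and 193 CPM in the carfilzomib libraries, and its log2 fold change was 1.24 ± 0.06. Every treated library was at least 2.71-fold above any control for PSMD2 and 2.16-fold for PSMD12. PSMA3 rose less, from 131 ± 11.4 to 234 ± 9.67 CPM (log2 fold change 0.83 ± 0.07). The exception, PSMC4, is 1 of several rows of its gene: its controls ranged from 0.150 to 9.54 CPM, so its log2 fold change of -1.18 ± 0.85 is uncertain and did not pass (adjusted p = 0.27). Without DMSO replicate 1 the row rose (1.85, adjusted p = 0.0100), and without DMSO replicate 3 it fell (-1.75, adjusted p = 0.024).

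**Figure D2:**
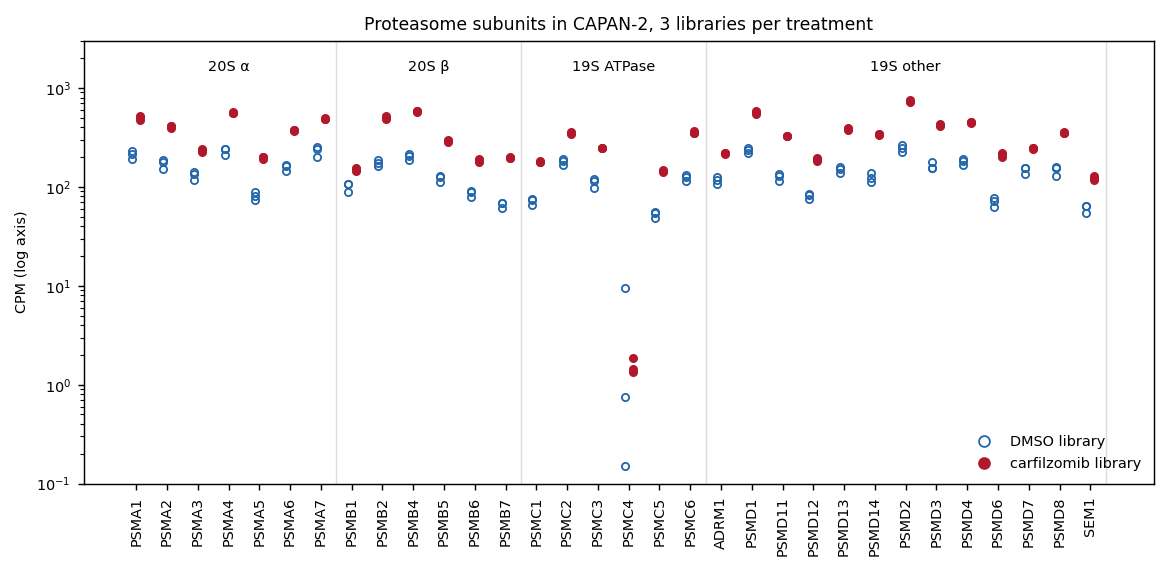
Levels of the 32 tested proteasome subunits in CAPAN-2, in CPM on a log axis, ordered by role; open circles are the 3 DMSO libraries and filled circles the 3 carfilzomib libraries. The treatments are separate for every subunit but PSMC4, whose row is uncertain.

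Factors around the core moved less evenly. POMP, the chaperone that matures the 20S particle, rose from 117 ± 15.2 to 296 ± 8.65 CPM (log2 fold change 1.34 ± 0.08), while PSMG1 and PSMG2 did not pass (0.08 and 0.04) and PSMG3 and PSMG4 fell. PSME4, the PA200 activator, rose (1.39 ± 0.06). PSMB10, the only immunoproteasome subunit with a tested row, fell (-0.54 ± 0.06). The transcript of NFE2L1 itself had 258, 270.2 and 278 CPM in the DMSO libraries and 297, 292 and 288 CPM in the carfilzomib libraries. The treated libraries were slightly above the controls, but the log2 fold change of 0.12 ± 0.05 did not pass (adjusted p = 0.069). It passed without DMSO replicate 3 (adjusted p = 0.013) and with DESeq2 (adjusted p = 0.021). NGLY1, which deglycosylates the NFE2L1 protein, rose (0.73 ± 0.06), as did the partner genes MAFG, MAFF and MAFK. DDI2, the protease that cleaves NFE2L1, fell (-0.19 ± 0.06), a call lost without carfilzomib replicate 2 (adjusted p = 0.053) or DMSO replicate 1 (adjusted p = 0.064).

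NFE2L1 and NRF2 bind antioxidant response elements, searched here as TGACNNNGC on both strands. In the RefSeq promoters (250 bases before to 50 after a gene's listed starts, build GRCh38.p14), 8 of the 27 proteasome subunits with an entry held a match (29.6%), beside 16.1% of all 27305 genes with an entry and 19.2% of the 11788 tested genes with one. The stretches for PSMA4 (chr15:78540616-78540715, plus strand) and PSMD12 (chr17:67366683-67366782, minus strand) are shown because both genes rose about equally. Each runs 5′ to 3′ on the gene's strand with the match in capitals, which starts 126 bases before the gene's start in PSMA4 and 165 in PSMD12.
PSMA4: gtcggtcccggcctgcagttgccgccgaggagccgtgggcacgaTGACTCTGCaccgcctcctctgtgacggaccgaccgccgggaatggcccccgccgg
PSMD12: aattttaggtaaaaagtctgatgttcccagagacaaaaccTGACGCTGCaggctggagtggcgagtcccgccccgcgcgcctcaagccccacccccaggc
A match describes these letters and not bound protein, which was not measured.

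Genes that hand substrates to the proteasome also rose. VCP, the ATPase that extracts ubiquitinated proteins from membranes and complexes, had 361, 393 and 355 CPM in the DMSO libraries and 866, 869 and 849 CPM in the carfilzomib libraries, a log2 fold change of 1.22 ± 0.06 with no overlap. All 10 VCP cofactors tested rose (median 0.67). UFD1, the ubiquitin-binding adaptor of VCP, rose from 39.03 ± 2.56 to 137 ± 0.834 CPM (1.82 ± 0.06), NPLOC4, its partner, by 1.12 ± 0.06, and the adaptors NSFL1C and UBXN4 by 1.27 ± 0.06 and 1.15 ± 0.05. Among 14 ubiquitin genes, E1 enzymes and recycling factors, 10 rose and none fell. ZFAND2A, an arsenite-inducible proteasome adaptor, had 17.1, 17.7 and 15.4 CPM in the DMSO libraries and 96.4, 84.8 and 86.9 CPM in the carfilzomib libraries, at least 4.79-fold higher in every treated library. The polyubiquitin gene UBB rose by 0.60 ± 0.06, whereas the main E1 enzyme UBA1 did not pass (0.02 ± 0.05).

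**Figure D3:**
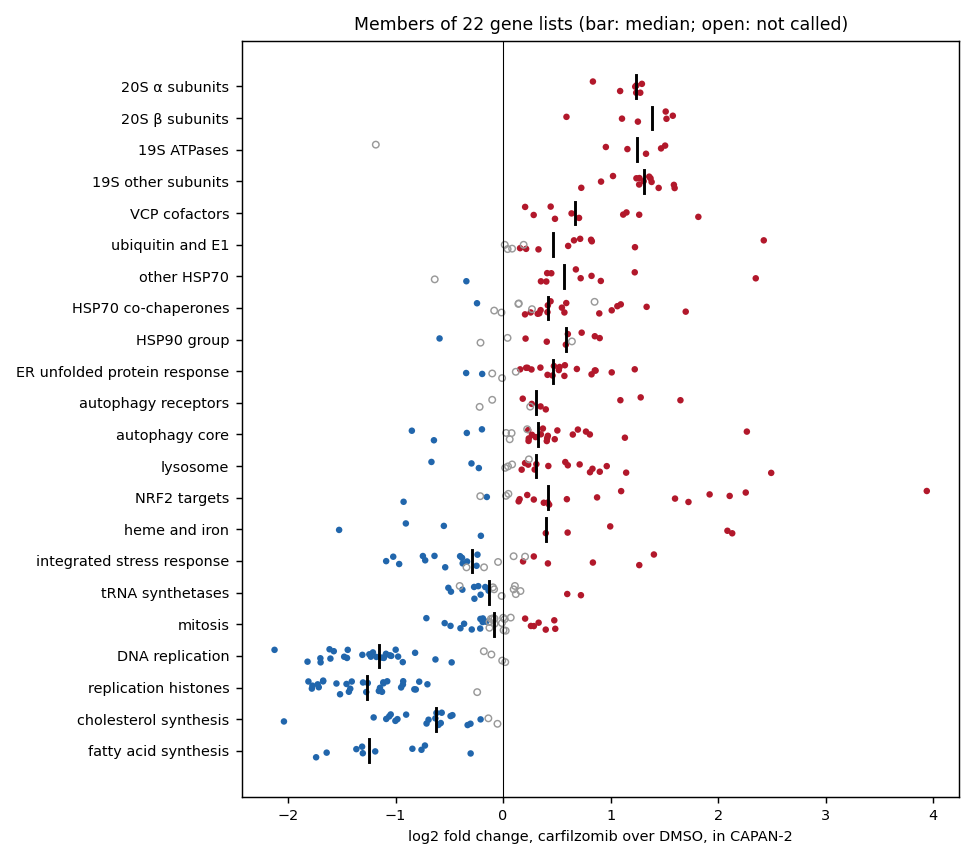
Log2 fold changes in CAPAN-2 for the tested members of 22 gene lists; each point is a gene, filled where it passed an adjusted p of 0.05 and open where it did not, and the bar is the list's median. The called proteasome subunits lie between 0.59 and 1.59, with PSMC4 open at -1.18, and the called members of the DNA replication, histone and lipid lists all lie below 0.

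Chaperones of the cytosol rose with the strongest changes in the inducible members. The rows of HSPA1A and HSPA1B, the stress-inducible HSP70 pair, are split over 8 copies and were summed. The sum was 4.27, 1.70 and 2.99 CPM in the DMSO libraries and 42.5, 21.7 and 22.7 CPM in the carfilzomib libraries. Replicate 1 was the highest of the treated libraries, but the groups did not overlap (log2 fold change 3.26 ± 0.28, adjusted p = 1.8e-07). HSPA6, an HSP70 that is silent without stress, had 0.865, 0.849 and 0.727 CPM in the DMSO libraries and 65.4, 45.3 and 47.97 CPM in the carfilzomib libraries. Its fold change of 65.5 (log2 6.03 ± 0.17) again had replicate 1 on top. HSPA8, the constitutive HSP70, went from 1949 ± 128 to 2589 ± 224 CPM and so rose by 0.41 ± 0.07 on the log2 scale. Of 12 other HSP70 genes, 10 rose and 1, HSPA2, fell.

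Partners of HSP70 followed with smaller steps. BAG3, the nucleotide exchange factor that couples HSP70 to autophagy, had 28.97, 28.2 and 27.7 CPM in the DMSO libraries and 98.6, 84.2 and 92.4 CPM in the carfilzomib libraries (log2 fold change 1.70 ± 0.07). DNAJB1, the J-domain protein that loads HSP70, rose by 0.55 ± 0.07, and DNAJB4 by 1.33 ± 0.09. Of 24 co-chaperones tested, 17 rose and only STUB1, an E3 ligase that works with HSP70, fell, a call lost in the fit of all 48 libraries (adjusted p = 0.069). HSPH1 rose by 0.72 ± 0.08 and the inducible HSP90 gene HSP90AA1 by 0.90 ± 0.07. HSPB8, the small heat shock partner of BAG3, rose from 0.792 ± 0.185 to 12.4 ± 0.625 CPM, the largest change after HSPA6 among the 53 chaperone genes tested here. HSPB1, usually a strong heat shock target, had 158, 149.7 and 148 CPM in the DMSO libraries and 174, 156 and 172 CPM in the carfilzomib libraries. The groups overlapped at carfilzomib replicate 2, and the log2 fold change of 0.14 ± 0.06 did not pass (adjusted p = 0.060). It passed without carfilzomib replicate 2 (adjusted p = 0.038) or DMSO replicate 1 (0.0495) and with DESeq2 (adjusted p = 0.026).

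Heat shock elements, the inverted GAA repeats bound by HSF1, were searched on both strands as 3 alternating units, GAA, TTC and GAA, with any 2 bases between neighbouring units. Of 44 tested chaperone genes with a promoter entry, 7 held a match (15.9%), beside 0.608% of all genes with an entry and 0.5005% of those tested. HSPA6 (chr1:161524430-161524529, plus strand) and HSPA8 (chr11:123062167-123062376, minus strand) are shown because both hold matches and their responses were far apart, 6.03 and 0.41. The match of HSPA6 starts 74 bases before the gene's start, and those of HSPA8 start 230 and 55 bases before it.
HSPA6: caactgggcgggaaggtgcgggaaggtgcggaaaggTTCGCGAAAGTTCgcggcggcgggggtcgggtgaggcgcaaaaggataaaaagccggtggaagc
HSPA8: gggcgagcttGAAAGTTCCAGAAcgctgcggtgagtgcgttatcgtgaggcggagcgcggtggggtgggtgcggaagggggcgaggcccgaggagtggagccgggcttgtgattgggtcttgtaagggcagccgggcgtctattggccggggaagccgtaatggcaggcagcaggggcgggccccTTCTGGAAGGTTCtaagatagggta
The stretch shown for HSPA8, of 210 bases, holds 2 matches, and that for HSPA6, of 100 bases, holds 1. Matches outside these stretches were not counted.

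ER and mitochondrial chaperones and the cytosolic chaperonin rose in part. The ER chaperone HSPA5 (BiP) had 494, 443 and 524 CPM in the DMSO libraries and 959, 763 and 859.6 CPM in the carfilzomib libraries, a log2 fold change of 0.82 ± 0.08 with no overlap, and HSP90B1 rose by 0.85 ± 0.06. Of 23 genes of the ER unfolded protein response, 18 rose and 2 fell, beside 25.7% and 26.7% of all genes. The falls were MANF and the transcription factor XBP1. The call of MANF was lost without carfilzomib replicate 2 (adjusted p = 0.059), carfilzomib replicate 3 (0.067) or DMSO replicate 2 (0.063). Of 7 mitochondrial chaperone genes 5 rose and 1 fell, with HSPD1 at 0.59 ± 0.06. In the cytosol, 4 of 8 subunits of the CCT chaperonin rose, beside 25.7% of all genes, led by CCT3 (0.65 ± 0.06). Without carfilzomib replicate 1 that count was 2.

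Autophagy genes rose in part. GABARAPL1, an ATG8 protein that decorates autophagosomes, had 22.3, 22.4 and 23.96 CPM in the DMSO libraries and 160.0, 163 and 151 CPM in the carfilzomib libraries. The treated libraries were at least 6.29-fold above the controls, with a log2 fold change of 2.79 ± 0.06 (adjusted p = 1.5e-12). MAP1LC3B, of the same family, rose from 14.6 ± 0.799 to 30.1 ± 4.92 CPM. ATG4A, the protease that processes GABARAP proteins, rose from 10.2 ± 1.04 to 48.7 ± 0.948 CPM, ATG4D rose by 1.13 ± 0.09, and ATG4B and ATG4C did not pass. Of 10 cargo receptors, 7 rose and none fell (1 fell without DMSO replicate 3), with CALCOCO2 (NDP52) at 1.65 ± 0.06 and TAX1BP1 at 1.09 ± 0.06. The row of SQSTM1 (p62) is 1 of 2 copies with 0.440 to 3.38 CPM, and its rise of 1.28 ± 0.40 is uncertain. It did not pass without carfilzomib replicate 2 (adjusted p = 0.074) or with DESeq2 (0.067), its groups overlapped, and it was 1.94 without DMSO replicate 1.

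In the lysosome, 15 of 22 genes rose and 3 fell, beside 25.7% and 26.7% of all genes. GLA, the α-galactosidase, had 40.4, 43.02 and 45.8 CPM in the DMSO libraries and 252, 246 and 229 CPM in the carfilzomib libraries, a log2 fold change of 2.49 ± 0.06 with tight replicates. PSAP, the precursor of the saposins, rose from 1252 ± 93.9 to 2442 ± 119 CPM, and ATP6V1A, a subunit of the proton pump, by 1.14 ± 0.05. LAMP1 did not pass (0.02 ± 0.06), and CTSZ fell (-0.67 ± 0.05).

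Genes of the integrated stress response moved in both directions. ATF3, a stress transcription factor, had 22.1, 22.4 and 22.2 CPM in the DMSO libraries and 59.7, 57.7 and 58.8 CPM in the carfilzomib libraries. The groups were far apart relative to their spread, with a log2 fold change of 1.40 ± 0.06. PPP1R15A (GADD34), which ends the translation block, rose by 1.27 ± 0.05, and DDIT3 (CHOP) rose from 27.8 ± 0.653 to 49.7 ± 2.74 CPM (0.83 ± 0.06). ATF4, the transcription factor at the centre of the response, rose by only 0.19 ± 0.06, a call lost without carfilzomib replicate 2 (adjusted p = 0.059). Of the 24 genes tested, 6 rose and 13 fell, beside 25.7% and 26.7% of all genes, so the rises stayed near the background. The falls included biosynthetic targets of ATF4. ASNS, asparagine synthetase, had 4.55, 4.15 and 5.11 CPM in the DMSO libraries and 2.402, 2.15 and 1.93 CPM in the carfilzomib libraries (log2 fold change -1.09 ± 0.18). SLC7A5, the large neutral amino acid transporter, fell from 937 ± 60.4 to 462 ± 11.8 CPM, and PHGDH, the first enzyme of serine synthesis, fell by 0.97 on the log2 scale. PSAT1 fell as well. Of 19 cytosolic tRNA synthetases, 9 fell and 2 rose (4 rose without DMSO replicate 2), beside 26.7% and 25.7% of all genes. GDF15, a secreted stress marker, had 39.3, 34.9 and 45.2 CPM in the DMSO libraries and 39.6, 32.1 and 34.04 CPM in the carfilzomib libraries; its groups overlapped and it did not pass (adjusted p = 0.13). It passed without carfilzomib replicate 1 (0.037) or DMSO replicate 2 (0.038).

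Sites for ATF4 with its partners were searched as TGATGNAA on both strands. Of 20 genes of the response with a promoter entry, 6 held a match, beside 4.46% of all genes and 2.95% of those tested. ASNS (chr7:97872419-97872518, minus strand) and ATF3 (chr1:212565177-212565276, plus strand) both hold one and moved in opposite directions. The match starts 68 bases before the start in ASNS and 191 in ATF3.
ASNS: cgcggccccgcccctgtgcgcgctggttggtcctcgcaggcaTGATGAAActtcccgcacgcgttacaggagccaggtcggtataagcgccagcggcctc
ATF3: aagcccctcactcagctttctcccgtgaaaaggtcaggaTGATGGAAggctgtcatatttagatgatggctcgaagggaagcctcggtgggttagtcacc

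Antioxidant genes rose as a group, with 16 of 21 higher and 2 lower (median 0.42), beside 25.7% and 26.7% of all genes. Leaving out either of DMSO replicates 1 and 2 or any carfilzomib replicate left 1 lower. HMOX1, heme oxygenase 1, had 3.08, 3.65 and 2.67 CPM in the DMSO libraries and 51.6, 47.8 and 42.8 CPM in the carfilzomib libraries. Every treated library was at least 11.7-fold above every control, at a log2 fold change of 3.94 ± 0.11 with an adjusted p of 6.2e-12. The next largest were OSGIN1, a growth inhibitor induced by oxidative stress, at 2.26 ± 0.08, malic enzyme ME1 at 2.11 ± 0.06, and GCLM, the modifier subunit of the enzyme that starts glutathione synthesis, at 1.92 ± 0.06. GCLC, the catalytic subunit of the same enzyme, rose by only 0.43 ± 0.06. NQO1, a classical NRF2 target, had 815, 785 and 711 CPM in the DMSO libraries and 886, 902 and 912 CPM in the carfilzomib libraries, a log2 fold change of 0.22 ± 0.06. SLC7A11, the cystine transporter, rose by 0.29 ± 0.07, and the drug exporter ABCC3 fell (-0.92 ± 0.06).

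Both GCLM (chr1:93909431-93909530, minus strand) and ME1 (chr6:83431132-83431231, minus strand) hold the antioxidant response element letters, as did 5 of 15 listed genes with an entry (33.3%). They are shown as the pair with the largest rises among those. The match starts 34 bases before the start in GCLM and 137 in ME1.
GCLM: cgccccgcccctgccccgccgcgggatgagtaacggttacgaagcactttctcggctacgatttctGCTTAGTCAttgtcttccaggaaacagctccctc
ME1: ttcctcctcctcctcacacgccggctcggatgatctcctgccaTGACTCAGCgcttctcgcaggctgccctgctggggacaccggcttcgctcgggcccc

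Iron and heme genes moved in both directions. The ferritin light chain FTL had 756, 719 and 547 CPM in the DMSO libraries and 2783, 2971 and 3096 CPM in the carfilzomib libraries. The treated libraries were at least 3.68-fold above any control, with a log2 fold change of 2.13 ± 0.10. The heavy chain FTH1 rose by 1.00 ± 0.08, and BLVRB, biliverdin reductase B, rose from 85.1 ± 7.22 to 361 ± 9.81 CPM. The transferrin receptor TFRC fell from 1069 ± 26.5 to 571 ± 29.6 CPM and the ferrireductase STEAP3 by 1.52 on the log2 scale. All 9 tested genes of the list were called, 5 higher and 4 lower, and without carfilzomib replicate 3 the lower count was 2.

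**Figure D4:**
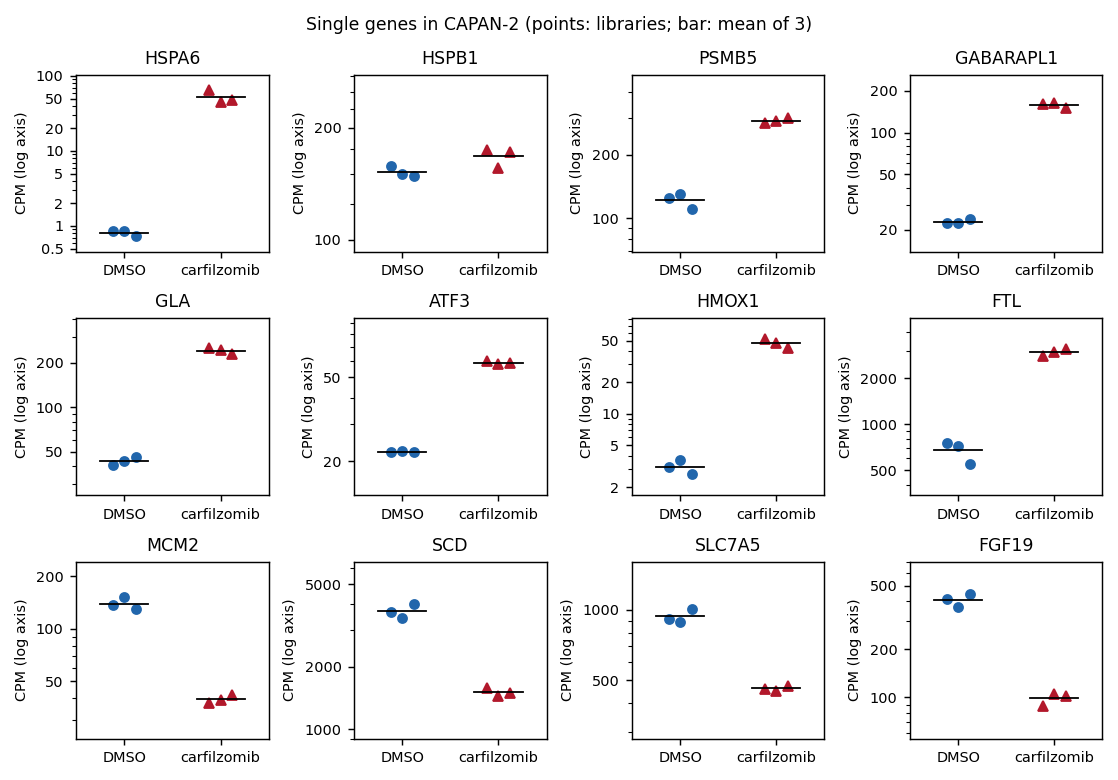
CPM of 12 genes in the 6 CAPAN-2 libraries on log axes, with circles for DMSO and triangles for carfilzomib and a bar at each group's mean. HSPA6, HMOX1, GABARAPL1, FTL, GLA, ATF3 and PSMB5 are higher after carfilzomib, and MCM2, SCD, SLC7A5 and FGF19 are lower, with no overlap; HSPB1 did not pass.

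Genes of S phase fell. Of 30 DNA replication genes, none rose and 26 fell, with a median of -1.15. MCM2, a subunit of the replicative helicase, had 136, 151 and 129.8 CPM in the DMSO libraries and 37.6, 38.9 and 41.99 CPM in the carfilzomib libraries, and every treated library was at least 3.09-fold below the lowest control. Its log2 fold change was -1.82 ± 0.07, and the other MCM2-7 subunits fell by 1.44 to 1.70. GINS2, which joins the helicase, fell from 40.1 ± 6.54 to 9.23 ± 1.11 CPM (-2.12 ± 0.12). The regulators E2F1 and CCNE2 (cyclin E2) fell from 82.7 ± 9.45 to 21.9 ± 1.62 CPM and from 14.9 ± 0.899 to 4.12 ± 0.416 CPM. RRM1 and ORC6 did not pass (-0.01 ± 0.06 and 0.02 ± 0.06). Replication-dependent histone genes, which are transcribed in S phase, gave 29 falls among 30 tested and no rise, with a median of -1.26. H1-5 fell from 267 ± 33.6 to 99.9 ± 5.88 CPM and H2AC4 from 35.2 ± 2.64 to 10.1 ± 0.839 CPM. Near-identical histone copies can share reads, so single histone genes are uncertain.

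Mitotic genes moved in both directions. Of 30 tested, 7 rose and 11 fell, with a median of -0.09, beside 25.7% and 26.7% of all genes, so the list stayed near the background. CCNB1 (cyclin B1) had 315, 318 and 291 CPM in the DMSO libraries and 426, 438 and 422 CPM in the carfilzomib libraries and AURKA (Aurora A) rose by 0.49 ± 0.06, both without overlap. MKI67, the proliferation marker Ki-67, fell from 471 ± 13.6 to 324 ± 9.58 CPM (-0.54 ± 0.05 on the log2 scale). CCND1 (cyclin D1) fell from 965 ± 64.4 to 521 ± 44.7 CPM, and the CDK inhibitors CDKN1A, CDKN1B and CDKN2B rose by 0.44 ± 0.09, 0.42 ± 0.06 and 0.50 ± 0.06. Of 14 tested genes of CDK inhibitors, cyclins and their partners, only these 3 rose and 7 fell, beside 25.7% and 26.7% of all genes. MYC fell by 0.28 on the log2 scale. The shares of cells in each phase were not measured.

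The E2F site TTTCCCGC, searched on both strands, was present in 9 of 26 replication genes with a promoter entry (34.6%), beside 1.98% of all genes and 2.995% of those tested. MCM3 (chr6:52284858-52284957, minus strand) and GINS2 (chr16:85688955-85689054, minus strand) are shown because they were among the larger falls. The match starts 174 bases before the start in MCM3 and 31 in GINS2. GINS3 also held a match and did not pass (-0.18 ± 0.09), but it fell without DMSO replicate 3 (adjusted p = 0.030).
MCM3: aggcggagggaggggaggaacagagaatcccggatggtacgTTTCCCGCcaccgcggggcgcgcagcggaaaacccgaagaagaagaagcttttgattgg
GINS2: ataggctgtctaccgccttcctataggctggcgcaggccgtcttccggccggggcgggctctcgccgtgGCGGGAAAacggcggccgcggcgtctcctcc

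Genes of lipid synthesis fell. Of 32 genes of cholesterol and fatty acid synthesis, none rose and 30 fell. SCD had 3684, 3454 and 4022 CPM in the DMSO libraries and 1582, 1439 and 1499 CPM in the carfilzomib libraries, at least 2.18-fold lower in every treated library, and a log2 fold change of -1.30 ± 0.06. FASN, fatty acid synthase, fell from 475 ± 22.1 to 184 ± 10.99 CPM, and the desaturase FADS2 fell by 1.74 on the log2 scale. In cholesterol synthesis the falls were smaller, with a median of -0.62. SQLE, squalene epoxidase, fell from 317 ± 18.3 to 149 ± 4.72 CPM. SREBF1 and SREBF2, the transcription factors of these pathways, fell by 0.76 and 0.63. SC5D did not pass.

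Survival and death genes moved in both directions. Of 20 p53 targets, 11 rose and 4 fell, beside 25.7% and 26.7% of all genes. MDM2, the ubiquitin ligase for p53, rose by 0.76 ± 0.06. CDKN1A, whose DMSO libraries reached 32.05 CPM against at least 34.1 CPM after treatment, rose by 0.44 ± 0.09. In the BCL2 family, 4 of 15 genes rose and 5 fell, beside 25.7% and 26.7% of all genes. PMAIP1 (NOXA) and MCL1 rose by 0.32 ± 0.10 and 0.19 ± 0.06, and BCL2 and BMF fell by 1.42 and 1.46. CASP9, CASP10 and CASP8 rose between 0.40 and 0.73.

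Signalling genes moved in both directions. JUN, an AP-1 subunit, rose from 13.1 ± 1.596 to 43.1 ± 5.15 CPM, and DUSP1, which inactivates MAP kinases, rose by 1.43 ± 0.07. The receptor EGFR fell (-0.56 ± 0.06) and the feedback inhibitors SPRY1 and SPRY2 fell by 0.84 and 0.53. Of 20 genes of MAP kinase feedback, 4 rose and 8 fell, beside 25.7% and 26.7% of all genes. Among 17 NF-κB targets, 11 rose and 3 fell, beside the same shares of all genes. The neutrophil chemokine CXCL8 led the rises (from 15.1 ± 2.301 to 47.7 ± 1.27 CPM). Of 23 listed interferon-stimulated and antigen presentation genes, 15 were tested. Of these, 10 rose and 2 fell, beside 25.7% and 26.7% of all genes. IFI44 had 16.4, 12.99 and 16.2 CPM in the DMSO libraries and 94.7, 96.3 and 95.3 CPM in the carfilzomib libraries. Its log2 fold change was 2.65 ± 0.08, and MX1, an antiviral GTPase, rose by 1.63 ± 0.08. OAS3 and IRF1 fell.

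Epithelial markers moved in both directions. KRT19, the ductal keratin, rose from 2241 ± 48.6 to 2764 ± 69.95 CPM and GATA6, a marker of classical pancreatic cancer, rose from 15.4 ± 0.493 to 19.1 ± 1.004 CPM, though not in the fit of all 48 libraries (adjusted p = 0.070). KRT8 and KRT18, the paired simple epithelial keratins, fell from 5039 ± 285 to 3702 ± 108 CPM and from 3885 ± 206 to 2618 ± 99.9 CPM. EPCAM did not pass (-0.06 ± 0.05). KRT16, a keratin of wounded skin, had 11.3, 11.4 and 10.99 CPM in the DMSO libraries and 51.9, 50.03 and 45.3 CPM in the carfilzomib libraries, at least 3.99-fold higher in every treated library. KRT6A had 0 DMSO counts and 65 carfilzomib counts, at least 25.7-fold higher, at levels near 0.619 CPM. Of the 65 counts, 42 were in carfilzomib replicate 1, and without it the bound was 15.2-fold, while without DMSO replicate 3 it was 15.5-fold. Of 16 classical subtype genes 2 rose and 7 fell, and of 22 basal subtype genes 7 rose and 10 fell. Of all genes, 25.7% rose and 26.7% fell. Vimentin (VIM) fell by 1.33 on the log2 scale and ZEB1 rose by 1.20 ± 0.13. Of 10 immune markers, 7 stayed under 1 CPM, and the summed level was 36.6 to 39.6 CPM in DMSO and 52.3 to 61.3 CPM after carfilzomib, most of it CD68, a lysosomal protein that rose from 22.01 ± 0.2196 to 47.3 ± 3.94 CPM.

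FGF19, a growth factor encoded on chromosome 11 near CCND1, had 411, 366 and 441 CPM in the DMSO libraries and 88.2, 105 and 102 CPM in the carfilzomib libraries, a log2 fold change of -2.05 ± 0.08 with no overlap. ANO1, a chloride channel, fell from 330.0 ± 14.5 to 159.9 ± 3.61 CPM, and FADD, an adaptor of death receptors, rose by 0.44 ± 0.07. Counting FGF19 and its 9 nearest RefSeq protein-coding genes on each side, 16 were tested, of which 3 rose, 9 fell and 4 did not pass. Of all genes, 25.7% rose and 26.7% fell. The falls include FGF19 itself, around which the region was drawn, and an effect of the region was not tested. The neighbours named were chosen after their values were seen.

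The lincRNA and snoRNA classes had more falls than rises. Of 479 lincRNA genes, 50 rose and 137 fell (median -0.33), and of 203 snoRNA genes 3 rose and 42 fell (median -0.32), beside 3977 rises and 3910 falls among 13320 protein-coding genes (29.9% and 29.4%). These classes had far fewer counts, with medians over genes of 50.2 for lincRNA and 37 for snoRNA against 1057 for protein-coding genes. Their part in the difference was not tested. Antisense genes gave 46 rises and 161 falls of 624, but the use of strand in counting is not given in the sources used here. NEAT1 and MALAT1, long nuclear RNAs, rose by 0.54 ± 0.10 and 0.72 ± 0.11.

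The CAPAN-2 response was then set against the other lines in 1 fit of all 48 libraries, as a test of the difference between responses. Of 22309 genes, 4182 responded more positively (18.7%) and 2474 more negatively (11.1%) in CAPAN-2 than the mean of the other 7 lines, 29.8% in all. Against PANC-1, the other pancreatic line, the counts were 3009 (13.5%) and 2538 (11.4%), 24.9% in all, and against H-1299, the lung line whose response was most like that of CAPAN-2, 3994 (17.9%) and 2209 (9.9%), 27.8% in all. The balance of directions moved with the scaling: 62.8% of the calls against the other 7 lines were higher with TMM, 47.9% with DESeq2's size factors and 50.2% with library totals. Against H-1299 the share was 64.4% with TMM and 49.7% with DESeq2's size factors. Over the 11622 genes tested in every line, Pearson's r across genes with the CAPAN-2 response was 0.565 for H-1299, 0.344 for PANC-1 and 0.0795 for RKO, the lowest. Genes are not independent replicates, and these r describe only the likeness of the fold changes.

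Proteasome subunits rose more in CAPAN-2 than on average elsewhere: the difference was called higher for 31 of 32, with a median difference of 0.80 log2 units. It was also called higher for 28 subunits against PANC-1 and 26 against H-1299, and lower for none. With DESeq2's size factors the counts were 31, 28 and 23 higher, and 1 was lower against H-1299. Replication genes fell further, with 26 of 30 lower than the mean of the other lines, 27 lower than PANC-1 and 30 lower than H-1299, counts that DESeq2's size factors left unchanged. Mitotic genes depended on the line compared. Of 30, 23 were higher and 1 lower than the mean of the other lines (19 and 3 with DESeq2's size factors), and 17 were higher and 2 lower than in PANC-1 (12 and 2). Against H-1299, 5 were higher and 10 lower (5 and 13). Of 32 lipid synthesis genes, 22 were lower and none higher than the mean of the other lines (23 lower with DESeq2's size factors). Against PANC-1, 22 were lower and none higher (24 lower). Against H-1299, 4 were higher and 20 lower (3 and 22). Chaperone genes, like mitotic genes, depended on the line compared. Of 53, 34 were higher and 3 lower than the mean of the other lines (25 and 5 with DESeq2's size factors). Against PANC-1, 28 were higher and 4 lower (26 and 5), but against H-1299, 12 were higher and 17 lower (8 and 22). The HSPA1A and HSPA1B sum gave a difference of 3.41 ± 0.56 from PANC-1 (adjusted p = 4.8e-06), -2.79 ± 0.53 from H-1299 (adjusted p = 4.8e-05) and -0.20 ± 0.48 from the mean of the other 7 lines (adjusted p = 0.99). The last was 0.12 without DMSO replicate 1, so its sign was not fixed.

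Several genes had responses far from the mean of the other lines, though for some of them a single other line came close. To keep genes that are silent elsewhere from leading, those tested in all 8 lines were ranked by the difference from the other 7, a restriction chosen after seeing the data. The genes described are a selection from that ranking. EIF3C (2.80 ± 0.77, with 31.8 ± 42.2 CPM after carfilzomib) ranked above GLRX. Among falls, ZNF252P-AS1 (-2.63) and PTGES2-AS1 (-2.19) ranked above CCNE2. ULBP1 (-2.02), RTN4R (-1.87) and PFKFB1 (-1.86) ranked above MFSD2A. CD81, a tetraspanin, had 0.483, 0.472 and 0.6198 CPM in the DMSO libraries and 8.38, 8.18 and 8.78 CPM in the carfilzomib libraries, and its response was 4.35 ± 0.16 log2 units above the mean of the others, where fold changes lay between -1.34 and 0.14. SLC16A14, a monocarboxylate transporter relative, differed by 3.03 ± 0.22, and GLRX, glutaredoxin, by 2.55 ± 0.13. IL6R, the interleukin-6 receptor, rose from 3.304 ± 0.457 to 29.3 ± 1.78 CPM and differed by 2.54 ± 0.13. ANXA6, a membrane-binding annexin, differed by 2.49 ± 0.14, and COL7A1, the anchoring fibril collagen, by 2.42 ± 0.14. The log2 fold change of COL7A1 was 3.13 in CAPAN-2 and 2.12 in H-929. HMOX1 differed by 2.29 ± 0.21, although RPMI had a larger rise (4.62). On the falling side, CCNE2 differed by -2.04 ± 0.14 and MFSD2A, a lysophospholipid transporter, by -1.84 ± 0.13. SDC3 (syndecan 3) differed by -1.82 ± 0.13 and THSD4 by -1.70 ± 0.11, although THSD4 also fell in H-1299 (-1.90). Without the restriction SMO led, with a difference of 6.95 ± 0.47, but it was tested within only 4 of the other lines.

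**Figure D5:**
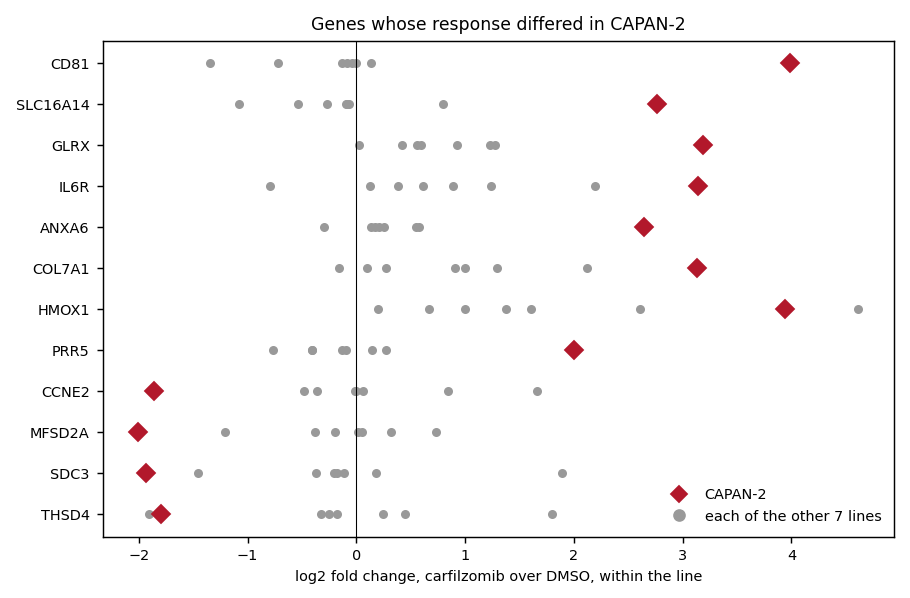
Log2 fold change of carfilzomib over DMSO for 12 genes with called differences, in CAPAN-2 (red diamonds) and in each of the other lines (grey circles). CAPAN-2 lies at the edge of or beyond the other lines for each gene except HMOX1, which rose more in RPMI, and THSD4, which fell about as far in H-1299.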

How the data were processed

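RNA from 48 libraries of 8 cancer cell lines was sequenced, and 6 of them are used here as the CAPAN-2 groups. The labels call the libraries stranded total RNA, while the series' design text speaks of mRNA. The authors deposited raw counts per gene for all libraries in 1 matrix of 33892 rows. Per the submitters' processing notes, bcl2fastq 2.19, FastQC, Trimmomatic, HISAT2, DESeq2 and build hg38 were used; the counting program and its use of strand are not given in the sources used here. Of the rows, 4803 share an Ensembl identifier with another (1948 identifiers), and 87.6% matched GENCODE 29.

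Counts were normalised by TMM, filtered with filterByExpr and tested with edgeR 4.0.16 (quasi-likelihood F test, 2-sided, Benjamini-Hochberg adjusted p under 0.05 over all genes tested) in R 4.3.3. Responses of lines were compared by contrasts in 1 fit with 16 groups. DESeq2 1.42.0 was an alternative. The fits were tested on simulated counts. The matrix held no row named as a mitochondrially encoded gene, so their share of the counts could not be computed. The replicates are called biological by the labels.

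Members and lists were chosen with earlier results of these data known. Named by rule were a set of fixed genes, the 15 largest rises and falls, up to 3 per list and direction, the 10 most abundant 2-fold changes and the 10 largest differences from the other lines per direction. These rules asked for a single row per identifier, a mean of at least 50 counts and no overlap of CPM. Other members were named for their role or after their values were seen. Alternatives were other scalings, filters, tests, a replicate block, each library left out and rows of 1 identifier summed. Promoters come from RefSeq (GRCh38.p14). Counting intervals cover counting error only.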

Additional observations from a re-analysis of the deposited data

Results flagged for a closer look

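The differences between lines come from a test of the difference itself, not from comparing calls. Against the mean of the other 7 lines, 4182 genes responded more positively and 2474 more negatively in CAPAN-2. Against PANC-1 the counts were 3009 and 2538, and against H-1299 they were 3994 and 2209. The HSPA1A and HSPA1B sum differed by 3.41 log2 units from PANC-1 and by -2.79 from H-1299.

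Differences above the mean of the other lines included those of SMO (6.95), CD81 (4.35), SLC16A14 (3.03), GLRX (2.55), IL6R (2.54), ANXA6 (2.49), COL7A1 (2.42), HMOX1 (2.29) and PRR5 (2.26). CCNE2 (-2.04), MFSD2A (-1.84), SDC3 (-1.82) and THSD4 (-1.70) had responses below that mean, although THSD4 also fell in H-1299. All values are differences of log2 fold changes. Each line received its own concentration, so dose and line cannot be told apart.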

How the results depend on the processing

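In CAPAN-2, testing against a fold change of 1.5 left 1005 higher and 1023 lower genes, and the lower count against H-1299 became 3337 when a mean of at least 50 counts was asked for. Leaving out 1 library gave 3908 to 4403 higher and 3946 to 4375 lower genes, and 2.88 to 3.60 for the HSPA1A and HSPA1B sum. The differences from the other 7 lines then ran from 3629 to 4042 higher and 2098 to 2286 lower, from PANC-1 2671 to 2857 and 2246 to 2388, and from H-1299 3619 to 3884 and 1913 to 2055. Same-numbered DMSO and carfilzomib libraries deviated from their group means with correlations of 0.010, 0.020 and -0.096, and not every library correlated best with its own number, so the numbers were not taken as a pairing. With the replicate number as a block, 4168 rose and 4223 fell, and no named gene gained or lost its call. With the block, the differences were 4084 and 2380 (other 7 lines), 2978 and 2456 (PANC-1) and 3866 and 2055 (H-1299). No named gene that was called in CAPAN-2 changed sign. Values that did not pass could, as did the uncertain row of PSMC4 and the difference of the HSPA1A and HSPA1B sum from the other 7 lines (0.12 without DMSO replicate 1). With no filter on low counts PSMC4 and GDF15 passed (adjusted p = 0.013 and 0.043), and with DESeq2's size factors HSPB1 and NFE2L1 did (0.042 and 0.046). In the fit of all 48 libraries NFE2L1 and ATG4C passed (0.040 and 0.032). The 13 single-gene differences kept their calls in all 143 values computed, but these genes were chosen for large and called differences. EIF3C, with its wide spread, was not among them. Rows that share an identifier, CPM near 0 and genes silent in DMSO limit what depth can show.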

Other observations

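Glycolytic and hypoxia genes moved in both directions in CAPAN-2. Of 23 tested, 10 rose and 6 fell, beside 25.7% and 26.7% of all genes. NDRG1, a stress-induced gene of hypoxic cells, rose from 21.8 ± 0.432 to 59.1 ± 2.32 CPM, and ENO2, an enolase, rose by 0.91 ± 0.12 on the log2 scale. GAPDH, a glycolytic enzyme often taken as a stable reference, rose from 2077 ± 243 to 3584 ± 89.1 CPM (log2 fold change 0.79 ± 0.07). Its libraries had 2149, 2277 and 1806 CPM in the DMSO libraries and 3494, 3585 and 3672 CPM in the carfilzomib libraries, with no overlap between the treatments. PFKL, the liver-type phosphofructokinase, fell from 59.3 ± 1.42 to 32.7 ± 2.88 CPM, and HK2, hexokinase 2, fell from 48.9 ± 0.961 to 34.4 ± 2.21 CPM.

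Genes of the ribosome were mostly not called. Of 32 ribosomal protein genes, 5 rose, none fell and 27 did not pass. Without DMSO replicate 3, 7 fell, and without carfilzomib replicate 3, 3 rose. Ribosome biogenesis genes gave 6 rises and 10 falls of 24, beside 25.7% and 26.7% of all genes. NOP56, a core protein of box C/D particles, fell from 161 ± 3.58 to 108 ± 3.94 CPM, and RRP12, a factor of subunit export, rose from 82.5 ± 2.74 to 193 ± 6.13 CPM. MXD1, an antagonist of MYC at shared sites, rose from 10.4 ± 0.857 to 27.5 ± 0.943 CPM.

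Other secreted and surface genes changed one by one. KLK6, a secreted serine protease, fell from 749.6 ± 49.6 to 319 ± 6.57 CPM, and IVL, a protein of the cornified envelope, fell from 22.96 ± 2.49 to 8.67 ± 0.809 CPM. GJB2, a gap junction connexin, fell from 187 ± 9.22 to 77.4 ± 2.05 CPM. Of 7 Wnt feedback genes, 1 rose and 4 fell, beside 25.7% and 26.7% of all genes. NKD1, an inhibitor of Wnt signalling, fell by 1.61 ± 0.16 on the log2 scale, and ZNRF3, which removes Wnt receptors from the surface, fell from 19.8 ± 1.82 to 12.2 ± 0.989 CPM. The mucin gene MUC1 fell from 105 ± 14.9 to 65.1 ± 1.59 CPM.

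The 10 most abundant rows held 6.34 ± 0.25% of the counts in DMSO and 5.68 ± 0.11% after carfilzomib (SD, n = 3). An exact two-sided permutation test gave p = 0.1, the smallest that 3 libraries against 3 can give.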
